A study of Homo sapiens with 6 samples.

Results

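The transcription factors that give intestinal epithelium its identity were read on 6 Affymetrix arrays of Caco-2 cells. Caco-2 is an established line from a human colorectal cancer that resembles absorptive enterocytes in culture. The groups were cells given a small interfering RNA against SDC1, the gene of the surface proteoglycan syndecan-1 (SDC1 siRNA, 3 arrays), and cells given a negative control siRNA (control siRNA, 3 arrays). All arrays hold RNA of this 1 transfected cancer line, a model of the absorptive cell rather than normal mucosa. The replicates are called independent, with no word on separate cultures, so the p-values reflect variation among these arrays alone, part of which could be technical. The 9 genes, taken by name with earlier results of these data known, were CDX1, CDX2, HNF4A, HNF4G, GATA4, GATA6, KLF4, KLF5 and FOXA2. Probe sets, the groups of array probes summarized as 1 value, were taken where the platform table gives 1 of these symbols and no other. That gave 19 of 54613 probe sets and 8 of 19775 genes. HNF4A had no probe set of that kind and was not analysed here.

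CDX1 and CDX2 are caudal-type homeobox factors that set and keep intestinal fate. HNF4G and its relative HNF4A are nuclear receptors that drive enterocyte and lipid transport genes, and GATA4 and GATA6 are zinc finger factors that set regional identity along the gut. KLF5 is a Krüppel-like factor of dividing crypt cells, KLF4 one of differentiated cells, and FOXA2 is a pioneer factor of endoderm. Many of these factors bind the same enhancers of brush border, transport and lipoprotein genes.

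The start regions of CDX2 and KLF5 show which core motifs of these families lie there. CDX2 is shown as the central factor of intestinal fate, and KLF5 because it had the only bright probe set with separate groups. The sequences are from RefSeq on GRCh38.p14, read along the strand of the gene, with capitals where they match a motif on either strand. The motifs searched were AGATAA for the GATA family, TTTAT for CDX, CAAAGTCCA for HNF4, TGTTTAC for FOXA and CACCC for Krüppel-like factors.
CDX2, chr13:27969266-27969565, minus strand: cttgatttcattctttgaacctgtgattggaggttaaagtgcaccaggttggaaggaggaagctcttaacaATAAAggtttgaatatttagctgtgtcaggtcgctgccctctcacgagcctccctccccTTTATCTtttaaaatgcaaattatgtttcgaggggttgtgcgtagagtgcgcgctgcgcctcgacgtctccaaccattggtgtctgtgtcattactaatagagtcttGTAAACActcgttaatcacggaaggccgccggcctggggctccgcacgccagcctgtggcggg
KLF5, first start, chr13:73054726-73055025, plus strand: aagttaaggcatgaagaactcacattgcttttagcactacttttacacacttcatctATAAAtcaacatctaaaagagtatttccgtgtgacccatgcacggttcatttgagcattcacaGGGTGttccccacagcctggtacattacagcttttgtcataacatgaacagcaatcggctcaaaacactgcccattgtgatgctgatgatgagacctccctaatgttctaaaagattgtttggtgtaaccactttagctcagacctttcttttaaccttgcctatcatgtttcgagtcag
KLF5, second start, chr13:73058755-73059054, plus strand: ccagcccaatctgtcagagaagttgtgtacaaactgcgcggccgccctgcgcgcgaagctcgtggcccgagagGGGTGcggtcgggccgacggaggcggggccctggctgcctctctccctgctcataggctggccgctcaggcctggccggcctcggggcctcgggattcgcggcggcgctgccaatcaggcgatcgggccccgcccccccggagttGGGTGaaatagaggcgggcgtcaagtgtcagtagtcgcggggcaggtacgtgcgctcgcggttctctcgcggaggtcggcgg
The CDX2 window held 2 matches to the CDX motif, 1 to the GATA motif and 1 to the FOXA motif, and the GATA match overlapped a CDX match. The first KLF5 window held 1 CDX match and 1 Krüppel-like match, and the second held 2 Krüppel-like matches. Among 35116 promoters of this length, 34.9% held the CDX motif, 10.3% the GATA motif, 3.42% the FOXA motif, 59.9% the Krüppel-like motif and 0.384% the HNF4 motif. These are matches of letters and not measured binding.

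Values below are log2 signals set against the median of the same probe set across arrays. They compare arrays, not genes, and give no absolute level, and each group's values are listed for replicates 1, 2 and 3 in turn. Only a rough brightness could be read, from the step at which the numbers are stored: bright (a log2 signal of 8 to 16), middle (4 to 8) or dim (below 4). Of the 19 member probe sets, 5 were bright, 4 middle and 10 dim. SDC1, the siRNA target, was at -0.50, -0.62 and -0.34 in the SDC1 siRNA arrays and at 0.37, 0.35 and 0.35 in the control siRNA arrays. Every SDC1 siRNA array was lower, and the difference was -0.84 ± 0.08 (± standard error, as for all differences here, limma adjusted p = 0.0238 over all genes), a call that was lost when any 1 array was left out (adjusted p from 0.0615 to 0.326). In the fit of single probe sets SDC1 did not pass, with its probe sets at -0.83 and -0.85 and a limma adjusted p of 0.121 for each. Control siRNA replicate 2 stood apart, with a median absolute relative signal of 0.0979 over all probe sets, against 0.0674 to 0.0785 in the other arrays. Among the 19 member probe sets it was the array farthest from the median in 7, the lowest in 6 and the highest in 4.

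None of the 8 measured factors passed the test between SDC1 siRNA and control siRNA. In RNA of whole cultures, fewer cells of a kind and less RNA per cell cannot be told apart. Of 19 member probe sets, 0 had a limma adjusted p under 0.05, as did 0% of all probe sets, and the members' adjusted p ran from 0.561 to 0.995. Combined into genes, as the mean of a gene's probe sets in its brightest class, 0 of 8 passed, where 0.0253% of all genes did. At an unadjusted p under 0.05 there were 2 member probe sets higher with SDC1 siRNA and 0 lower, where the shares over all probe sets were 4.18% and 4.15% (8.33% in either direction). The groups were separate in the same 2 probe sets, GATA4 1553131_a_at and KLF5 209212_s_at, with SDC1 siRNA higher, and in 0 with it lower. Over all probe sets, 7.06% were separate with SDC1 siRNA higher and 7.42% with it lower (14.5% in all). Of the members' differences, 13 lay above 0 and 6 below, with a median of 0.06. Over all probe sets the median was 0.00, and 50.2% lay above 0. The 95% intervals of the member probe sets reached from a 0.712-fold to a 1.76-fold signal with SDC1 siRNA.

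**Figure D1:**
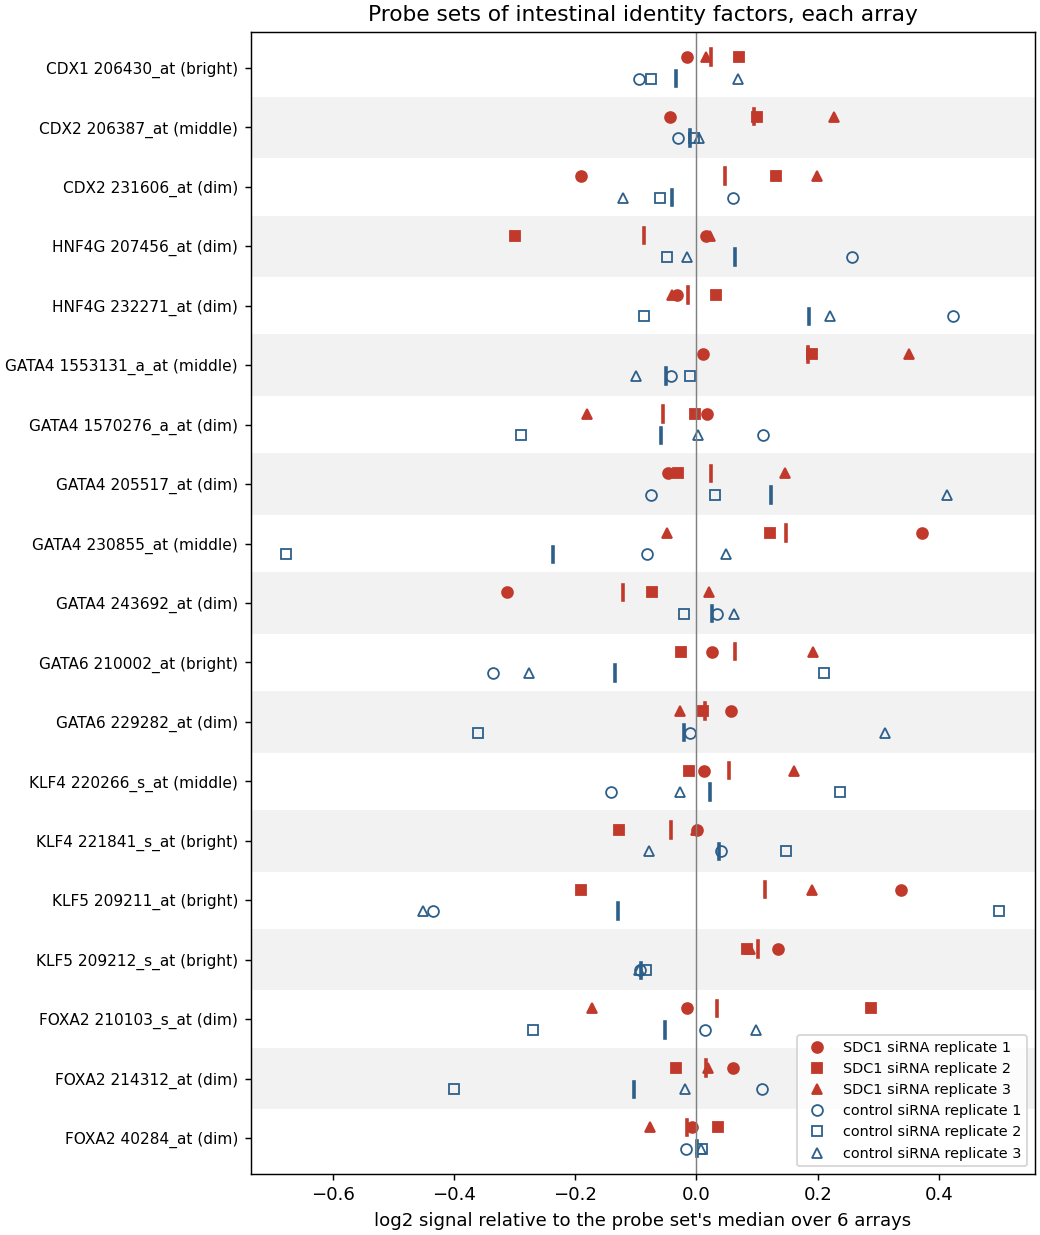
Log2 signal of each member probe set relative to its own median (x axis), with SDC1 siRNA arrays as filled red markers above control siRNA arrays as open blue markers, marker shapes for replicates and short bars for group means. The groups are separate in GATA4 1553131_a_at and KLF5 209212_s_at, and control siRNA replicate 2 (open squares) lies lowest in 6 and highest in 4 of the 19 probe sets.

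CDX1 was measured by 1 bright probe set, 206430_at, at -0.02, 0.07 and 0.02 in the SDC1 siRNA arrays and at -0.09, -0.08 and 0.07 in the control siRNA arrays. The groups overlapped, with control siRNA replicate 3 just below the highest SDC1 siRNA array. The gene's difference was 0.06 ± 0.07 (limma adjusted p = 0.832), with a 95% interval from -0.11 to 0.22. CDX2 was measured by a middle and a dim probe set. The middle one, 206387_at, was at -0.04, 0.10 and 0.23 in the SDC1 siRNA arrays and at -0.03, -0.00 and 0.00 in the control siRNA arrays. The control siRNA arrays lay close together (SD 0.0182), while the SDC1 siRNA arrays spread on both sides of them (SD 0.136). The difference was 0.10 ± 0.08 in the gene fit (limma adjusted p = 0.702), an interval from a 0.944-fold to a 1.22-fold signal. It was 0.17 without SDC1 siRNA replicate 1 and 0.04 without SDC1 siRNA replicate 3. The dim CDX2 probe set, 231606_at, was at -0.19, 0.13 and 0.20 in the SDC1 siRNA arrays and at 0.06, -0.06 and -0.12 in the control siRNA arrays, a difference of 0.09 ± 0.12. In both CDX2 probe sets SDC1 siRNA replicate 1 was the lowest of all arrays and SDC1 siRNA replicate 3 the highest.

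HNF4G, the nuclear receptor that acts beside HNF4A in the gut, had 2 probe sets, both dim and both with a difference below 0. Probe set 207456_at was at 0.02, -0.30 and 0.02 in the SDC1 siRNA arrays and at 0.26, -0.05 and -0.02 in the control siRNA arrays. Probe set 232271_at was at -0.03, 0.03 and -0.04 in the SDC1 siRNA arrays and at 0.42, -0.09 and 0.22 in the control siRNA arrays. In each, control siRNA replicate 1 was highest and control siRNA replicate 2 lay among or below the SDC1 siRNA arrays, so the groups overlapped. The gene's difference was -0.18 ± 0.11 (limma adjusted p = 0.609, 95% interval from -0.42 to 0.07). It was -0.27 ± 0.09 without control siRNA replicate 2 (limma adjusted p = 0.373) and -0.07 without control siRNA replicate 1 (limma adjusted p = 0.872).

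GATA4, the GATA factor of the proximal small intestine, was measured by 5 probe sets with no common direction, 3 above 0 and 2 below. Probe set 1553131_a_at, of the middle class, was at 0.01, 0.19 and 0.35 in the SDC1 siRNA arrays and at -0.04, -0.01 and -0.10 in the control siRNA arrays. Every SDC1 siRNA array lay above every control siRNA array, most narrowly in SDC1 siRNA replicate 1. Its difference was 0.23 ± 0.10 (limma adjusted p = 0.599, exact two-sided permutation p = 0.1, the smallest that 3 arrays against 3 allow). Probe set 230855_at, also of the middle class, was at 0.37, 0.12 and -0.05 in the SDC1 siRNA arrays and at -0.08, -0.68 and 0.05 in the control siRNA arrays. The groups overlapped, and control siRNA replicate 2 was by far the lowest array. Its difference of 0.39 ± 0.19 (limma adjusted p = 0.635) was 0.17 without that array.

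The other 3 GATA4 probe sets were dim. Probe set 1570276_a_at was at 0.02, -0.00 and -0.18 in the SDC1 siRNA arrays and at 0.11, -0.29 and 0.00 in the control siRNA arrays, a difference of 0.00 ± 0.12. Probe set 205517_at was at -0.05, -0.03 and 0.15 in the SDC1 siRNA arrays and at -0.08, 0.03 and 0.41 in the control siRNA arrays, a difference of -0.10 ± 0.13 that was 0.05 without control siRNA replicate 3. Probe set 243692_at was at -0.31, -0.07 and 0.02 in the SDC1 siRNA arrays and at 0.03, -0.02 and 0.06 in the control siRNA arrays, a difference of -0.15 ± 0.10. The groups overlapped in all 3.

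As a gene, GATA4 is the mean of its 2 middle probe sets, at 0.19, 0.16 and 0.15 in the SDC1 siRNA arrays and at -0.06, -0.34 and -0.03 in the control siRNA arrays. Within the SDC1 siRNA group those probe sets ran in opposite order, one highest in replicate 3 and the other in replicate 1. Their mean had an SD of 0.0217 there, where the single probe sets had SDs of 0.170 and 0.211. The gene's difference was 0.31 ± 0.09 (limma adjusted p = 0.313), a 1.24-fold signal. GATA4 was 1 of 8 member genes at an unadjusted p under 0.05, a share of 10.6% over all genes. It was also the 1 member gene with separate groups, where 8.26% of all genes were separate with SDC1 siRNA higher and 8.47% with it lower (16.7% in all). With the mean of all its probe sets the difference was 0.08 ± 0.08 (limma adjusted p = 0.796).

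GATA6, which overlaps with GATA4 in the small intestine and is also made in the colon, had a bright and a dim probe set. The bright one, 210002_at, was at 0.03, -0.03 and 0.19 in the SDC1 siRNA arrays and at -0.34, 0.21 and -0.28 in the control siRNA arrays. Control siRNA replicate 2 was the highest of all arrays, while the other control siRNA arrays were the lowest. The gene's difference was 0.20 ± 0.14 (limma adjusted p = 0.675, 95% interval from -0.13 to 0.52), and 0.37 ± 0.09 without control siRNA replicate 2 (limma adjusted p = 0.237). It was 0.10 without control siRNA replicate 1, 0.13 without control siRNA replicate 3 and 0.12 as the mean of both probe sets. The dim one, 229282_at, was at 0.06, 0.01 and -0.03 in the SDC1 siRNA arrays and at -0.01, -0.36 and 0.31 in the control siRNA arrays, a difference of 0.03 ± 0.15. Here control siRNA replicate 2 was the lowest array.

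KLF5, which supports dividing crypt cells, had 2 bright probe sets. Probe set 209212_s_at was at 0.13, 0.08 and 0.09 in the SDC1 siRNA arrays and at -0.09, -0.08 and -0.10 in the control siRNA arrays. The groups were separate, and this probe set had the smallest spread within groups of the 19 (SD 0.0284 with SDC1 siRNA and 0.00613 with control siRNA). The difference was 0.19 ± 0.08, a 1.14-fold signal with an interval from 1.01-fold to 1.29-fold (limma adjusted p = 0.561, exact two-sided permutation p = 0.1). Probe set 209211_at was at 0.34, -0.19 and 0.19 in the SDC1 siRNA arrays and at -0.43, 0.50 and -0.45 in the control siRNA arrays. Its spread was the widest of the 19, with control siRNA replicate 2 highest, and its difference of 0.24 ± 0.25 had an interval from -0.33 to 0.82. As the mean of both, KLF5 was at 0.22 ± 0.14 (limma adjusted p = 0.630), and at 0.38 ± 0.10 without control siRNA replicate 2 (limma adjusted p = 0.267). It was 0.14 without control siRNA replicate 1 and 0.14 without control siRNA replicate 3.

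KLF4, linked to exit from the cell cycle, had probe sets of opposite sign. The bright one, 221841_s_at, was at 0.00, -0.13 and -0.00 in the SDC1 siRNA arrays and at 0.04, 0.15 and -0.08 in the control siRNA arrays, a difference of -0.08 ± 0.08 in the gene fit (limma adjusted p = 0.786). The middle one, 220266_s_at, was at 0.01, -0.01 and 0.16 in the SDC1 siRNA arrays and at -0.14, 0.24 and -0.03 in the control siRNA arrays, a difference of 0.03 ± 0.11. Both overlapped between the groups, with control siRNA replicate 2 highest in each. The gene was at -0.02 without that array and at -0.04 without SDC1 siRNA replicate 2, and at -0.02 as the mean of both probe sets.

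FOXA2, which opens chromatin in endoderm, had 3 dim probe sets. Probe set 40284_at was at -0.01, 0.04 and -0.08 in the SDC1 siRNA arrays and at -0.02, 0.01 and 0.01 in the control siRNA arrays, a difference of -0.02 ± 0.08. Probe set 210103_s_at was at -0.01, 0.29 and -0.17 in the SDC1 siRNA arrays and at 0.01, -0.27 and 0.10 in the control siRNA arrays, a difference of 0.09 ± 0.14. Probe set 214312_at was at 0.06, -0.03 and 0.02 in the SDC1 siRNA arrays and at 0.11, -0.40 and -0.02 in the control siRNA arrays, a difference of 0.12 ± 0.13. The groups overlapped in each, and in the last of them, as in 210103_s_at, control siRNA replicate 2 was lowest. The gene was at 0.06 ± 0.09 (limma adjusted p = 0.858), and at -0.02 without that array.

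**Figure D2:**
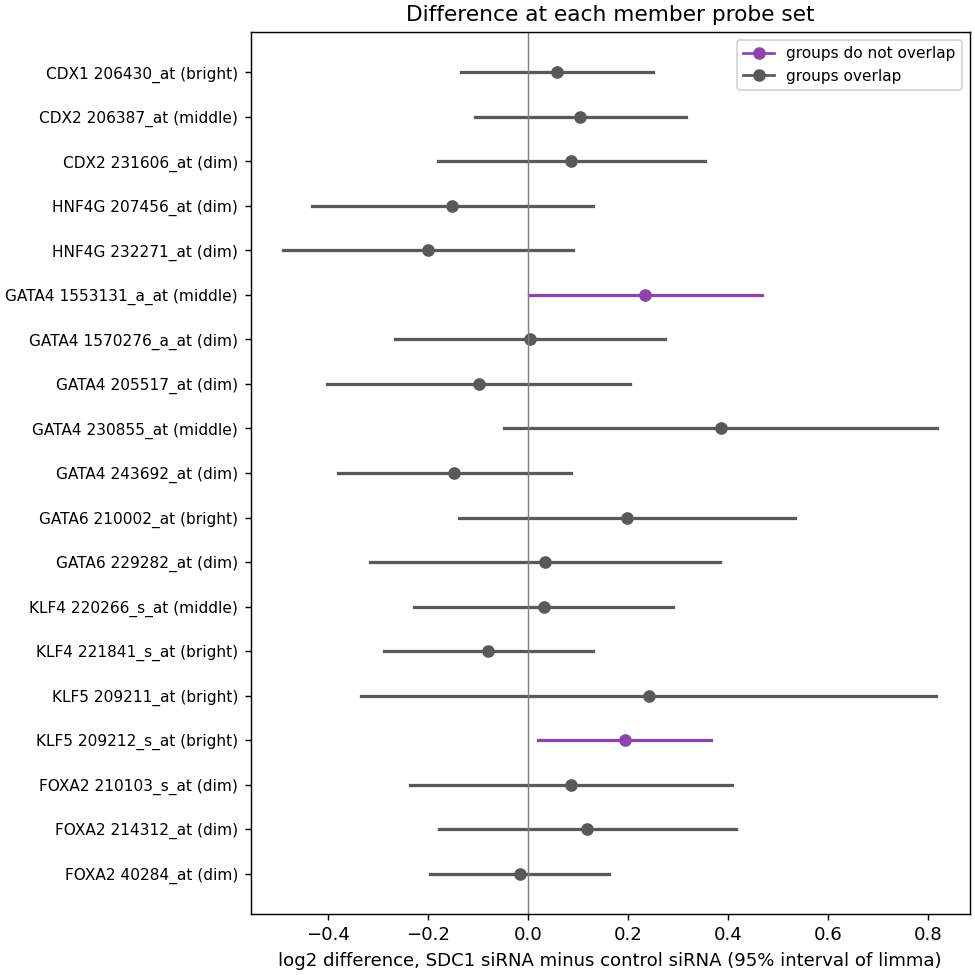
Log2 difference, SDC1 siRNA minus control siRNA (x axis), at each of the 19 member probe sets (points) with the 95% interval of the limma fit (lines). The probe sets with separate groups, GATA4 1553131_a_at and KLF5 209212_s_at in purple, are those whose interval lies above 0.

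Ordered by gene difference, the factors ran GATA4 (0.31), KLF5 (0.22), GATA6 (0.20), CDX2 (0.10), FOXA2 (0.06), CDX1 (0.06), KLF4 (-0.08) and HNF4G (-0.18). Each neighbour in this order lay within the other's 95% interval. Of the 8 genes, 6 lay above 0 and 2 below, with a median of 0.08. Over all genes the median was 0.01, and 52.1% lay above 0. By brightness, 4 of 5 bright, 4 of 4 middle and 5 of 10 dim member probe sets had a difference above 0. The median SD within groups was 0.165 over the member probe sets and 0.130 over all probe sets.

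With each array left out in turn, 1 member gene changed sign, FOXA2 without control siRNA replicate 2. Without that array, 4 of 8 member genes had an unadjusted p under 0.05, GATA6, KLF5 and GATA4 higher and HNF4G lower with SDC1 siRNA, where the share over all genes in the same fit was 10.7%. The lowest limma adjusted p among the members was then 0.237. Without any other 1 array, 1 of 8 was under that bound, GATA4, where the shares over all genes were 7.11% to 12.4%. GATA6, KLF5, GATA4 and HNF4G were also at an unadjusted p under 0.05 with arrays weighted by estimated quality. That fit gave control siRNA replicate 2 the lowest weight, 0.468, and the share over all genes was 13.8%. What sets that array apart was not tested.

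**Figure D3:**
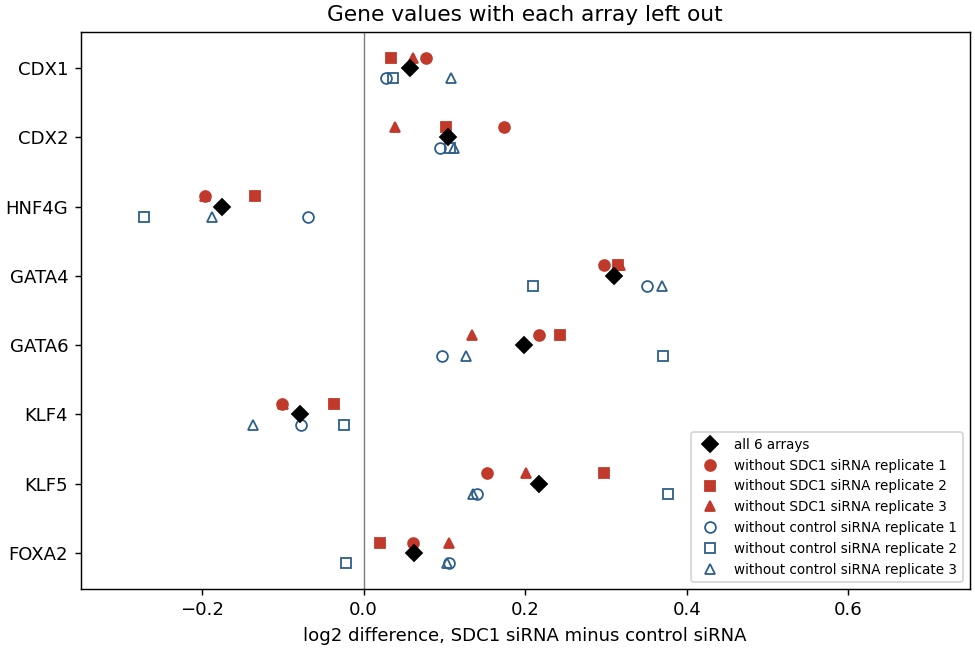
Log2 difference of each member gene, SDC1 siRNA minus control siRNA (x axis), with all arrays (black diamonds) and without each array in turn (red filled markers for a missing SDC1 siRNA array, blue open markers for a missing control siRNA array). Without control siRNA replicate 2, GATA6 is at 0.37 and KLF5 at 0.38, and FOXA2 turns to -0.02; without control siRNA replicate 3, GATA6 is at 0.13 and KLF5 at 0.14.

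Genes whose values ran most like those of GATA4, KLF5 and GATA6, the members with the largest differences, were sought among 15053 other bright or middle genes by Pearson's r over the 6 arrays. For GATA4 they were DIRAS1 (r = 0.997), UNC5C (r = 0.995) and TAP2 (r = 0.993). For KLF5 they were MYL12B (r = 0.998), NEDD9 (r = 0.993) and PERP (r = 0.991). For GATA6 they were ADORA2B (r = 0.996), NDFIP1 (r = 0.995) and GSPT1 (r = 0.992). These values describe the arrays, which all genes share together with their normalization. Picked as the highest of 15053 over 6 arrays, they are high by selection, and they were not tested.

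Genes around the factors were read in the same fit, and 0 of 168 list genes had a limma adjusted p under 0.05. Among 22 paralogues of the members, 2 were higher and 1 lower at an unadjusted p under 0.05, where the shares over all genes were 5.43% and 5.19%, and the median difference was 0.03. KLF17, a Krüppel-like factor of germ cells and the early embryo, was at 0.31 ± 0.08 (limma adjusted p = 0.218, from 1 dim probe set). KLF12 was at 0.29 ± 0.10 and KLF8 at -0.23 ± 0.08, both of them factors that bind CtBP corepressors. KLF12 was at 0.09 as the mean of all its probe sets, and KLF8 at -0.10 ± 0.11 in its other, middle probe set, where the groups overlapped. Of 14 measured cofactors and competitors of 18 listed, 0 had an unadjusted p under 0.05, with a median of -0.01. CTBP2, a corepressor, was at 0.12 ± 0.06, NCOA1, a nuclear receptor coactivator, at -0.14 ± 0.08, and NR2F1, an orphan receptor that can occupy HNF4 sites, at -0.20 ± 0.14 (dim).

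Of 21 other gut transcription factors, 10 lay above 0 and 11 below, with 0 at an unadjusted p under 0.05. CREB3L3, a factor of liver and intestine that drives lipid genes, was at 0.20 ± 0.09 (dim), ASCL2, a factor of intestinal stem cells, at -0.19 ± 0.09, and RXRA, the partner of many nuclear receptors, at -0.24 ± 0.12. As the mean of all its probe sets ASCL2 was at -0.04, and RXRA was at -0.10 ± 0.11 in its other, middle probe set. Among 17 factors of other gut regions and tissues, 0 were higher and 1 lower at an unadjusted p under 0.05, with a median of 0.05. HAND1, a factor of heart and trophoblast, was at -0.26 ± 0.08 (limma adjusted p = 0.310), FOXL1, a factor of gut mesenchyme, at 0.27 ± 0.12, and OTX2, a factor of the forebrain, at -0.15 ± 0.08 (dim). FOXL1 was at 0.13 as the mean of all its probe sets.

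No gene in the lists of genes that these factors are known to drive or repress passed either. Of 29 enterocyte genes, 19 lay above 0 and 10 below, with a median of 0.05 and 0 at an unadjusted p under 0.05. TMPRSS15, the enteropeptidase that activates trypsinogen, was at 0.26 ± 0.12, VIL1, which encodes the brush border protein villin, at 0.19 ± 0.09, and MYO1A, a myosin of the microvillus, at 0.22 ± 0.15 (dim). TMPRSS15 was at -0.06 in its other, dim probe set, and VIL1 at 0.07 as the mean of all its probe sets. Of 28 HNF4 targets of liver and gut, 14 lay above 0 and 14 below, with 1 higher and 1 lower at an unadjusted p under 0.05. Those were the apolipoprotein genes APOA4 (0.35 ± 0.15) and APOA2 (-0.30 ± 0.13), and MTTP, which loads lipid onto apolipoprotein B, was at 0.17 ± 0.08 (dim).

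Among 17 targets of KLF4 or KLF5, 6 lay above 0 and 11 below, with 1 higher and 1 lower at an unadjusted p under 0.05. TAGLN, a smooth muscle actin-binding protein that KLF4 represses, was at 0.17, 0.21 and 0.12 in the SDC1 siRNA arrays and at -0.29, -0.20 and -0.14 in the control siRNA arrays. These groups were separate, with a difference of 0.37 ± 0.07 (limma adjusted p = 0.147), but they overlapped in the gene's remaining probe set, where the difference was 0.08 (limma adjusted p = 0.882 as the gene's only probe set). CCND1, the cyclin that KLF4 represses and KLF5 induces, was at -0.25, -0.14 and -0.01 in the SDC1 siRNA arrays and at 0.01, 0.19 and 0.04 in the control siRNA arrays. These groups were again separate, with a difference of -0.21 ± 0.09 (limma adjusted p = 0.451). They overlapped in its other probe set, of the middle class, at -0.15 ± 0.09. Of the 17 targets, 1 was separate with SDC1 siRNA higher and 3 with it lower, where the shares over all genes were 8.26% and 8.47%. EGR1, an early response factor, had a difference of -0.54 ± 0.25, and its groups overlapped.

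**Figure D4:**
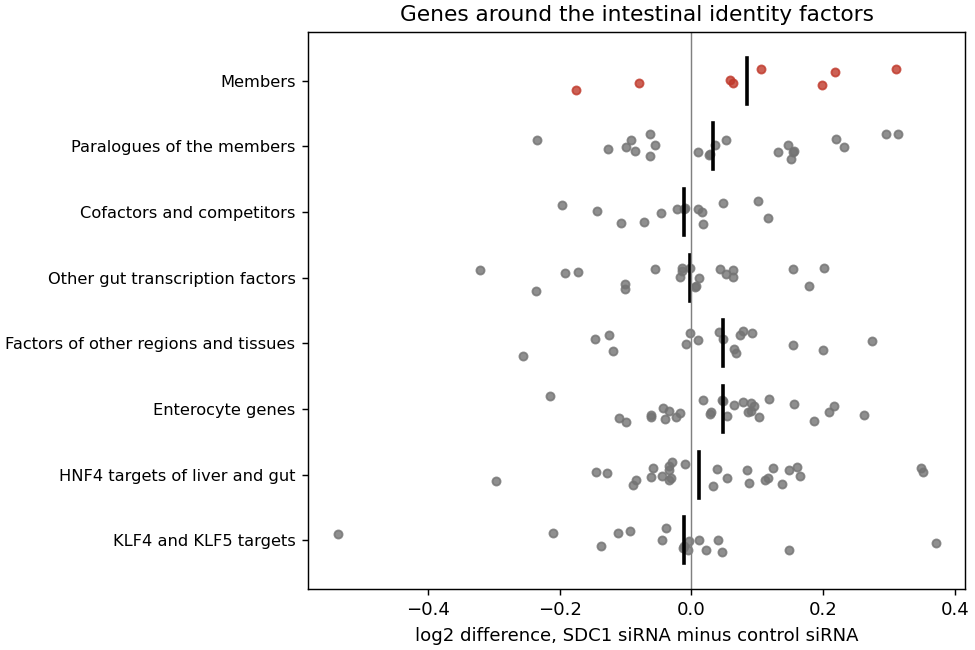
Log2 difference, SDC1 siRNA minus control siRNA (x axis), of each measured gene (points) among the members (red) and in lists of related genes (grey), with the median of each as a black bar. The medians lie between -0.01 and 0.08, and points of every list stand on both sides of 0.

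Markers of the labelled cell type and of others were read beside these values. Of 8 markers of enterocyte-like Caco-2 cells, 5 were bright (CDH1, EPCAM, KRT8, KRT18 and KRT19), and VIL1 was middle in its brightest probe set. CDH17, at 0.02 ± 0.11, and KRT20, at 0.09 ± 0.14, were dim. The median difference of the 8 was 0.03, with KRT8 at 0.09 ± 0.07 and KRT18 at 0.04 ± 0.06. Of 6 fibroblast markers, 3 were lower at an unadjusted p under 0.05, LUM (-0.62 ± 0.17), COL3A1 (-0.29 ± 0.10) and PDGFRB (-0.24 ± 0.10), where 5.19% of all genes were. The other 3 lay above 0, DCN (0.10 ± 0.06) and THY1 (0.11 ± 0.07) with separate groups and COL1A1 (0.07 ± 0.10) with overlapping ones, where 8.26% of all genes were separate with SDC1 siRNA higher. The mean of all 6 ran from -0.09 to -0.02 in SDC1 siRNA arrays and from -0.03 to 0.22 in control siRNA arrays. LUM was at 0.04 in its other, dim probe set, and COL3A1 at -0.03 without probe sets ending in _x_at or _s_at, which can match several transcripts. Of 4 endothelial markers, 2 were higher at an unadjusted p under 0.05, CDH5 (0.37 ± 0.12) and VWF (0.24 ± 0.09), where 5.43% of all genes were. PECAM1 was at 0.10 ± 0.09, and KDR, which was dim, at -0.01 ± 0.11. VWF was at 0.12 as the mean of both its probe sets. The mean of all 4 ran from 0.04 to 0.09 in SDC1 siRNA arrays and from -0.19 to -0.08 in control siRNA arrays, without overlap. The means of the Caco-2 markers, of the paralogues and of the members also did not overlap between the groups. For the Caco-2 markers they ran from -0.016 to 0.037 in SDC1 siRNA arrays and from -0.062 to -0.020 in control siRNA arrays. For the paralogues they ran from 0.014 to 0.032 and from -0.066 to -0.004, and for the members from 0.010 to 0.080 and from -0.056 to -0.018. The means of all other lists overlapped. How often the means of other sets of genes separate was not tested. Of 3 leukocyte markers, CD3E was at 0.22 ± 0.10, CD14 at -0.11 ± 0.12 and PTPRC at 0.01 ± 0.08 (dim). Of 6 markers of secretory gut cells, DEFA6 was at -0.32 ± 0.08, TFF3 at 0.17 ± 0.07 and MUC2 at 0.08 ± 0.08. None of these markers had a limma adjusted p under 0.05, centred values cannot show which are at background, and their part in the members' values was not tested.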

How the data were processed

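Biotinylated cRNA from total RNA was hybridized to Affymetrix arrays, and samples were grouped and numbered by title. The authors processed the arrays with RMA, per the submitters' processing notes, in a version not given in the sources used here. Deposited values are taken as log2, the scale RMA gives. They are also centred, a step the sources do not state: the median across arrays was 0 for 54675 of 54675 probe sets (tolerance 1e-06). Differences survive this and levels do not. The number of arrays limits precision.

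Single-precision numbers at 8 to 16, at 4 to 8 and below 4 are stored in different steps. Each probe set got the coarsest step that all its values met (tolerance 0.15 of a step), which gave 17.3%, 45.2% and 37.5% of probe sets. A probe set on both sides of a bound is put in the dimmer class, and by chance some are put too high. After 62 control probe sets were left out, 41091 had 1 symbol in the platform annotation, 1801 several and 11721 none there. A gene is the mean of its probe sets in its brightest class.

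SDC1 siRNA was set against control siRNA in limma 3.58.1 (R 4.3.3; lmFit, eBayes, group as the only term), with Benjamini-Hochberg adjustment over all probe sets or all genes and a threshold of 0.05. The fit was tested on simulated data. The text names SDC1, the members, up to 3 genes of lowest p in each of 12 lists, and the 3 genes most like each of 3 members. DCN, THY1, COL1A1, KDR, CDH1, EPCAM, KRT19, CDH17 and KRT20 were named after their values were seen. The members, lists and gene rule were chosen with earlier results of these data known.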

Additional observations from a re-analysis of the deposited data

How the results depend on the processing

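No member probe set, member gene or list gene had a limma adjusted p under 0.05 (0 of each) with a replicate block, without any 1 array, after a further quantile normalization, with array medians set to 0, with array weights, in a robust fit, among bright and middle features, or under other rules for combining probe sets. At an unadjusted p under 0.05 there were 0 to 4 member probe sets and 0 to 4 member genes, where the shares over all features were 5.64% to 13.4% of probe sets and 7.11% to 15.7% of genes. The lowest adjusted p of a member was 0.0986, for GATA4 in the robust fit, which gave 15 warnings over all probe sets and 3 over all genes, 0 of them in a member's own fit. Of 327 member values under alternatives, 312 kept their direction and 15 did not. Over all genes, 5 passed as reported, 0 with the replicate block, 9 after quantile normalization, 39 with array weights, 3 in the robust fit, 11 among bright and middle genes, 3 when all probe sets were averaged and 0 to 1 without 1 array. SDC1 was at -0.84 with the replicate block (limma adjusted p = 0.0929) and at -0.92 to -0.78 without 1 array. Arrays of the same number did not deviate together (correlations -0.01, -0.26 and -0.11 across genes), and those of different number had correlations from -0.15 to 0.21. Deviations from the mean of 3 arrays sum to 0, so these values cannot show whether arrays of the same number share more than a number. GATA4 1570276_a_at turned to -0.017 after quantile normalization, -0.037 with array weights and -0.013 in the robust fit. Without probe sets ending in _x_at or _s_at, LUM turned to 0.042 and TMPRSS15 to -0.060, each then resting on another probe set, COL3A1 was at -0.026 and TAGLN at 0.079, and KLF4 had none left. Without 1 array, differences that crossed 0 ranged over -0.021 to 0.11 for the FOXA2 gene, -0.11 to 0.088 for GATA4 1570276_a_at, -0.20 to 0.046 for GATA4 205517_at, -0.14 to 0.20 for GATA6 229282_at, -0.051 to 0.14 for KLF4 220266_s_at, -0.042 to 0.19 for FOXA2 210103_s_at, -0.029 to 0.22 for FOXA2 214312_at, -0.043 to 0.014 for FOXA2 40284_at, -0.22 to 0.032 for CD14 and -0.038 to 0.078 for PTPRC. The cause was not tested.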
